A study of Capra hircus with 29 samples.

Results

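The growing oocyte stores mRNA for later use, and the expression of 10 genes whose proteins store, repress or re-activate such mRNA was followed in goat oocytes. The genes were *CPEB1*, *ZAR1*, *YBX2*, *DAZL*, *PATL2*, *LSM14B*, *PABPC1L*, *PABPN1L*, *DDX6* and *IGF2BP2*, taken by gene symbol from the 21343 genes of the table. Their values were not a criterion, but earlier results of these data were known when they were chosen. All 10 had a row. *DAZL* and *LSM14B* each had a second row, at 0 in 29 and 28 of the 29 samples, and the row with the higher mean was used (ENSCHIG00000017877 and ENSCHIG00000010284). The oocytes came from Ji'ning grey goats of a high fertility group, labelled with litters of more than 3 kids, and a low fertility group, labelled with fewer than 2; the methods instead set the limits at 3 or more and 2 or fewer. Oocytes of large, medium and small follicles are called HLO, HMO and HSO in the high and LLO, LMO and LSO in the low fertility group, with 5 samples each except 4 of HSO (replicates 1, 3, 4 and 5). No age, treatment or genetic modification is given for any group. Each sample held a few oocytes drawn, at least in high fertility goats, from a pool of its stage. It is unknown which goats gave a sample, and the p-values measure the spread between these samples, which may be partly technical.

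An oocyte stops transcription late in its growth and then lives on the messages it has made. Many of them are kept silent with short poly(A) tails, bound by proteins such as CPEB1, ZAR1 and YBX2 and by the repressor particle of DDX6, LSM14B and PATL2. When meiosis resumes, CPEB1 and DAZL help to lengthen the tails of chosen messages or to raise their translation, and the embryonic poly(A)-binding proteins PABPC1L and PABPN1L hold the new tails. Messages are later cleared as the embryo takes over.

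FPKM summed to 222697 to 490048 per sample, with the lowest sum in LMO replicate 2 (next lowest 347806), and 6646 to 8689 genes per sample were above 0.5 FPKM. Of 10 oocyte markers, 7 were above 0.5 FPKM in every sample, among them *GDF9* and *ZP3*, while *NLRP5* and *NOBOX* were low. Of 9 granulosa cell markers with a row, 4 stayed below 0.5 FPKM throughout (*FSHR*, *LHCGR*, *CYP19A1* and *AMH*) and 1, *STAR*, was above it in every sample. The 9 markers together summed to 5.14 to 39.8 FPKM, against 628 to 9173 FPKM for the oocyte markers. Of 4 stroma markers with a row, *DCN* was above 0.5 FPKM in every sample (1.95 to 16.7 FPKM), *COL1A2* in 28, *LUM* in 6 and *COL1A1* in none. The 4 summed to 2.94 to 18.9 FPKM. Of 5 leukocyte markers with a row, 3 stayed below 0.5 FPKM throughout, among them *PTPRC*, and the 5 summed to 0.0640 to 0.938 FPKM. Their part in the results below was not tested. Since FPKM are relative to the RNA of each pool, fewer oocytes of a kind and less of a message per oocyte cannot be told apart. The libraries were made from polyadenylated RNA, so FPKM may also vary with the poly(A) tail length of a message. This was not tested.

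*ZAR1* had by far the highest mean FPKM of the 10 genes. Its mean was 81.3 ± 45.5 FPKM (SD, n = 29), above 92.9% of the 9692 genes tested over all samples. The other 9 genes had means of 0.511 to 2.98 FPKM, and only *PATL2* among them was above the median of the tested genes, 2.67 FPKM. *ZAR1* was the highest of the 10 genes in 28 samples and made up 20.0 to 96.2% (median 87.1%) of their summed FPKM. The exception was LLO replicate 5, with 3.18 FPKM of *ZAR1* and 4.97 FPKM of *DAZL*. After *ZAR1* came *PATL2* (2.98 ± 2.33), *CPEB1* (2.01 ± 1.92), *DAZL* (1.40 ± 1.31), *PABPC1L* (1.13 ± 0.789), *DDX6* (0.948 ± 0.600), *IGF2BP2* (0.870 ± 0.562), *PABPN1L* (0.641 ± 0.551), *YBX2* (0.576 ± 0.520) and *LSM14B* (0.511 ± 0.388; mean FPKM ± SD, n = 29 each).

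This order came from the values tested, so tests of its 9 neighbouring pairs only describe how firm it is. Of these pairs, only *ZAR1* and *PATL2* differed beyond the spread over samples. *ZAR1* was higher in 29 of 29 samples, by a mean of 4.23 ± 1.38 (SD) on the log2(FPKM + 1) scale (two-sided paired permutation test, p = 2e-05, the smallest 100000 resamples can give; adjusted p = 0.00018 over 9 pairs). *PATL2* was above *CPEB1* in 18 of 29 samples (permutation p = 0.0265, adjusted p = 0.119), and the other 7 pairs had adjusted permutation p of 0.189 to 0.739. The order by means did not hold in most samples for *DAZL* above *PABPC1L* (13 of 29) and *DDX6* above *IGF2BP2* (12 of 29). Between 4 and 10 of the genes were above 0.5 FPKM in a sample, and all 10 in 1 sample. *YBX2* was listed at 0 in 5 samples and *PABPN1L* in 2.

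**Figure D1:**
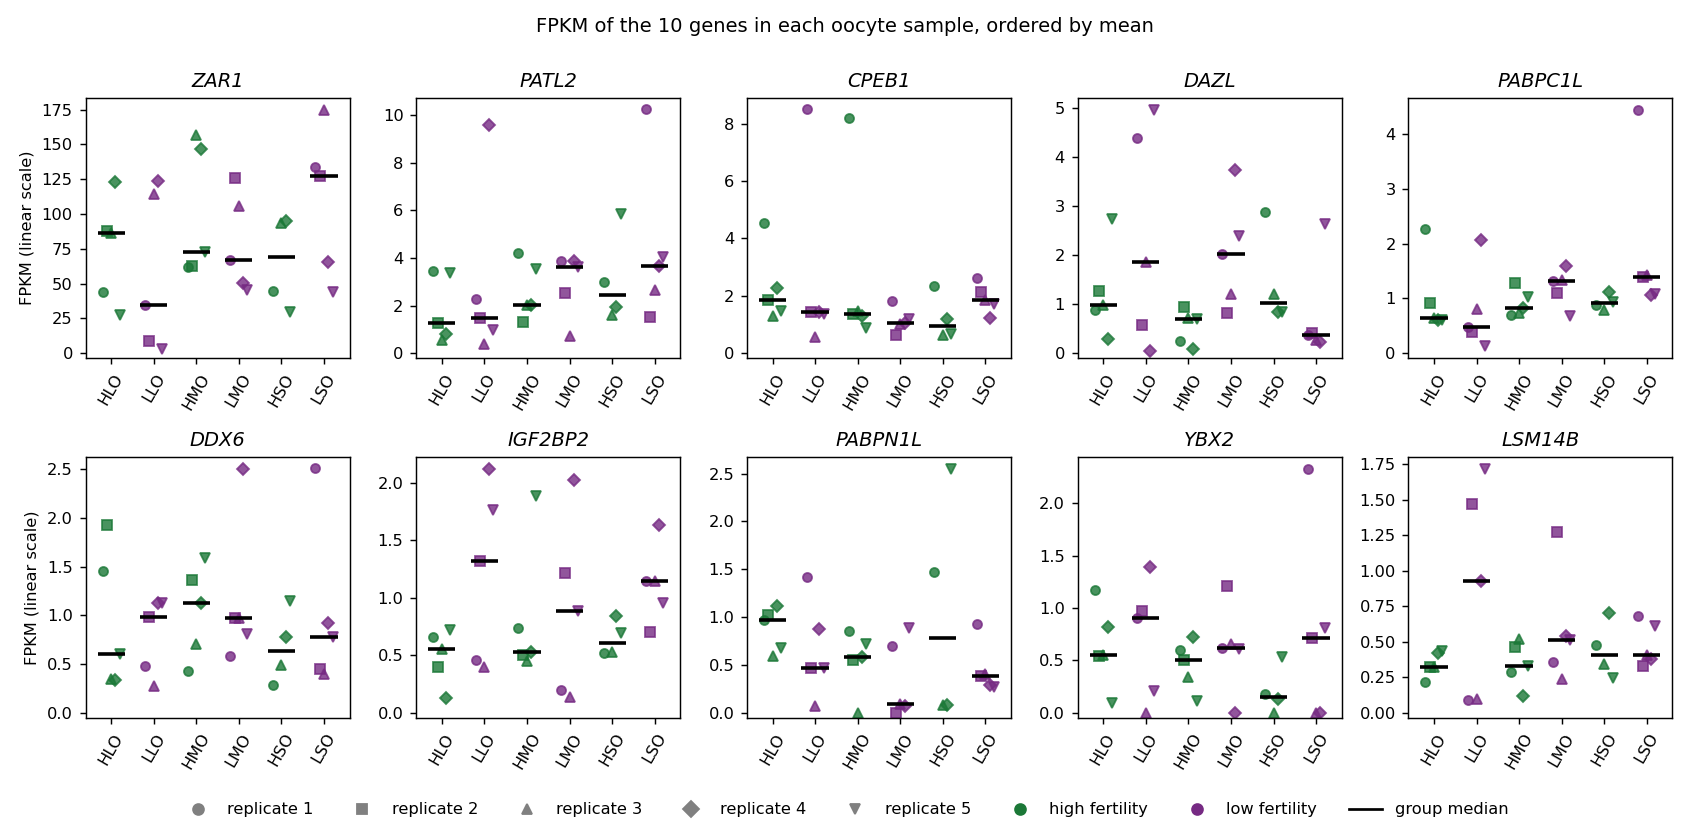
FPKM (vertical axis, linear, a scale of its own for each gene) of the 10 genes in each of the 29 samples, by group; green points are high and purple points low fertility samples, the shape gives the replicate number and the black line the group median. The groups overlap for every gene, and *ZAR1* reaches 175 FPKM while no other gene exceeds 10.2 FPKM.

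Among the RNA-binding repressors, *ZAR1* encodes an oocyte protein that gathers stored messages. It had 43.8, 88.1, 86.6, 123 and 27.2 FPKM in HLO replicates 1 to 5 and 34.9, 8.58, 114, 124 and 3.18 FPKM in LLO. The corresponding values were 62.1, 62.9, 157, 147 and 72.9 FPKM in HMO and 67.3, 126, 105, 50.3 and 45.1 FPKM in LMO. They were 44.6, 93.5, 94.9 and 29.8 FPKM in HSO replicates 1, 3, 4 and 5 and 133, 127, 175, 65.2 and 43.7 FPKM in LSO. LLO replicates 2 and 5 were the lowest samples, and high and low values stood side by side in every group.

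*CPEB1* encodes the protein that binds the cytoplasmic polyadenylation element. HLO replicates 1 to 5 had 4.55, 1.87, 1.32, 2.28 and 1.47 FPKM, and LLO had 8.51, 1.45, 0.580, 1.43 and 1.36 FPKM. HMO had 8.19, 1.36, 1.46, 1.29 and 0.878 FPKM, and LMO had 1.81, 0.654, 1.01, 1.07 and 1.19 FPKM. In HSO it was 2.36, 0.622, 1.19 and 0.687 FPKM (replicates 1, 3, 4 and 5), and in LSO 2.63, 2.15, 1.85, 1.25 and 1.71 FPKM. The first value is the highest in every group. It is taken up below with the replicate numbers.

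*DAZL* encodes a germ cell protein that controls the translation of maternal messages. In medium follicles its values were 0.252, 0.938, 0.722, 0.0894 and 0.705 FPKM in HMO and 2.03, 0.826, 1.22, 3.74 and 2.40 FPKM in LMO. All HMO samples were below 1 FPKM, and the groups overlapped by LMO replicate 2 alone. Large follicles had 0.888, 1.28, 0.981, 0.282 and 2.75 FPKM in HLO and 4.39, 0.568, 1.86, 0.0441 and 4.97 FPKM in LLO, so that LLO held both the lowest and the highest value. Small follicles had 2.89, 1.20, 0.847 and 0.846 FPKM in HSO replicates 1, 3, 4 and 5 and 0.378, 0.424, 0.277, 0.234 and 2.63 FPKM in LSO, where only replicate 5 reached the level of HSO.

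*IGF2BP2* encodes a protein that protects bound messages from decay. HLO had 0.662, 0.397, 0.559, 0.125 and 0.717 FPKM and LLO 0.463, 1.32, 0.400, 2.12 and 1.76 FPKM. HMO had 0.735, 0.506, 0.451, 0.528 and 1.88 FPKM and LMO 0.199, 1.21, 0.141, 2.02 and 0.884 FPKM. HSO had 0.516, 0.526, 0.839 and 0.691 FPKM and LSO 1.15, 0.700, 1.15, 1.63 and 0.952 FPKM. Most low fertility samples of large and small follicles were above those of the high fertility group, with overlap in both. *YBX2*, a germ cell Y-box protein that coats and stabilises messages, had group means of 0.211 ± 0.230 (SD, n = 4) in HSO to 0.768 ± 0.949 FPKM (SD, n = 5) in LSO, and its highest value was 2.32 FPKM in LSO replicate 1.

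In the repressor particle, *PATL2* encodes the oocyte form of the Pat1 scaffold. Its group medians were 1.29 FPKM in HLO, 1.49 in LLO, 2.01 in HMO, 3.63 in LMO, 2.47 in HSO and 3.65 in LSO, within ranges of 0.405 to 9.56 FPKM in LLO and 1.52 to 10.2 FPKM in LSO. *DDX6*, the RNA helicase of the particle, had group means of 0.675 ± 0.373 (SD, n = 4) in HSO to 1.17 ± 0.764 FPKM (SD, n = 5) in LMO. *LSM14B*, its partner needed for meiotic maturation, ranged from 0.215 to 0.437 FPKM in HLO and from 0.0920 to 1.72 FPKM in LLO, the narrowest and the widest group. Of the poly(A)-binding proteins, *PABPC1L* had group medians of 0.488 FPKM in LLO to 1.38 FPKM in LSO. *PABPN1L* had group medians of 0.0906 FPKM in LMO to 0.967 FPKM in HLO, and its highest value was 2.54 FPKM in HSO replicate 5.

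The study compared the fertility groups stage by stage, and its methods name no test for this. Here the same comparisons were made with limma's moderated test on log2(FPKM + 1), so counts need not match those of the study. Genes were counted by an unadjusted p under 0.05 with a log2 fold change beyond 1. None of the 10 genes passed these limits in large, medium or small follicles or over all stages, where 2.29%, 3.40%, 1.70% and 0.526% of all genes tested did. With Benjamini-Hochberg adjustment over all genes none passed 0.05 either (lowest limma adjusted p 0.828, 0.254, 0.880 and 0.512), and 0%, 0.0715%, 0.0119% and 0.0103% of all genes did. Weighting the samples by their quality (array weights) changed this: *DAZL* and *ZAR1* then passed the adjusted threshold in medium follicles, with 1011 of 8390 genes, and *DAZL* in the interaction, with 231 of 9692. By unadjusted p alone 1 of the 10 genes passed in medium follicles and 0 in the other comparisons, against 8.67% of all genes in medium, 4.14% in large and 4.41% in small follicles and 9.99% over all stages. No gene of the 10 separated the groups of a stage completely, where 0.432%, 1.70% and 2.05% of all genes did in large, medium and small follicles. The filter on low values left 9, 10 and 8 of the 10 genes to test. *LSM14B* was not tested in large and small follicles, nor *PABPN1L* in small follicles.

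The gene with the unadjusted p under 0.05 was *DAZL*, lower in HMO (0.541 ± 0.355 FPKM; SD, n = 5) than in LMO (2.04 ± 1.14 FPKM; SD, n = 5). Its log2 fold change was -0.93 (SE 0.272, 95% interval -1.52 to -0.34), with an unadjusted limma p of 0.00462, an adjusted p of 0.254 over 8390 genes and an exact two-sided permutation p of 0.0159. A test of 5 against 5 samples cannot go below 0.00794. It was 1 of 30 such exact tests on the 10 genes, of which 0 in large, 1 in medium and 2 in small follicles had a p under 0.05, against 3.85%, 9.96% and 6.08% of all genes tested. In all 10 fits without 1 sample the gene stayed under the unadjusted threshold of limma. The log2 fold change lay between -0.75 and -1.10. The limit of 1 was passed in 3 of these fits, those leaving out replicate 2 of HMO and replicates 2 and 3 of LMO. The summed granulosa cell markers were also lower in HMO than in LMO, without overlap, and their part in this difference was not tested.

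The difference in *DAZL* was -0.38 on the log2 scale in large follicles (95% interval -1.41 to 0.65, exact permutation p = 0.508) and 0.52 in small follicles (-0.26 to 1.30, exact permutation p = 0.254), the latter opposite in sign to that of medium follicles. Whether the difference depended on stage was tested by the interaction term, which did not pass (limma F-test, p = 0.0596, adjusted p = 0.667, n = 29). Without LSO replicate 5, its high sample, the small follicle difference was 0.81 and passed the unadjusted threshold of limma. This was the only 1 of 16 alternatives that passed. Over them the limma p ranged from 0.0094 to 0.452 and the log2 fold change from 0.27 to 1.16. Over 29 fits that each left out 1 sample (n = 28) the interaction p ranged from 0.0153, without LSO replicate 5, to 0.154. It was under 0.05 in 7 of them. Over all 35 alternatives it was under 0.05 in 12, among them a pseudocount of 0.1, median-of-ratios factors and quantile normalization, so this call depended on the processing.

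*IGF2BP2* had a fold change below 0 at each stage and did not pass the test: the log2 fold changes were -0.51 (95% interval -1.09 to 0.06) in large, -0.01 (-0.64 to 0.62) in medium and -0.35 (-0.75 to 0.04) in small follicles. Over all stages it was -0.29 (-0.59 to 0.02; limma p = 0.0621, adjusted p = 0.512), with 0.652 ± 0.394 FPKM (SD, n = 14) in high and 1.07 ± 0.628 FPKM (SD, n = 15) in low fertility samples. Unadjusted it came under 0.05 in 6 of 35 alternatives over all stages, 3 of 17 in large and 3 of 16 in small follicles. The exact p in small follicles was 0.0317. *PABPC1L* in small follicles had an exact p of 0.0476 with a log2 fold change of -0.47 (-1.11 to 0.18).

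The widest intervals were those of *ZAR1*. Its log2 fold change was 1.18 (95% interval -0.74 to 3.10, exact permutation p = 0.349) in large, 0.33 (-0.58 to 1.25) in medium and -0.71 (-1.83 to 0.41) in small follicles. Without LLO replicate 5 the large follicle value was 0.48 and without LLO replicate 4 it was 1.70, so it depended on single samples. *CPEB1* had 0.10 (-0.89 to 1.09), 0.49 (-0.34 to 1.31) and -0.44 (-1.03 to 0.14) in the same order, and *PATL2* -0.18 (-1.29 to 0.93), -0.09 (-0.84 to 0.67) and -0.32 (-1.31 to 0.67). Over all stages the intervals of 9 of the 10 genes lay within 1 on either side of 0, the exception being *ZAR1* (-0.55 to 1.15). In small follicles 2 of 8 did so, and for the others a log2 change of 1 in at least 1 direction lay within the interval.

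The median log2 fold change of the 10 genes lay close to that of all genes tested in large follicles (0.06 against -0.09), medium follicles (-0.07 against -0.07) and over all stages (-0.16 against -0.04). In small follicles it was -0.38 against -0.01, with 7 of the 8 tested genes below 0 and none past the unadjusted threshold of limma. Without the filter on low values it was -0.34 against -0.01 there, with 2 of the 10 genes above 0. Between the stages, with the population as covariate, 0 of the 10 genes passed an unadjusted limma F-test p of 0.05 (lowest p 0.140, of *ZAR1*, n = 29), against 1.66% of all genes. Large follicle samples had 65.3 ± 47.2 FPKM of *ZAR1* (SD, n = 10), those of medium follicles 89.6 ± 41.1 FPKM (SD, n = 10) and those of small ones 89.7 ± 48.7 FPKM (SD, n = 9). Of the interaction tests 0 of 10 passed, against 7.89% of all genes.

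The members were also set beside relatives of their own families. Of 12 tested comparisons with a relative, the relative was higher in 8 and the member in 3 (two-sided paired permutation test on log2(FPKM + 1), p = 2e-05 each, the smallest 100000 resamples can give; adjusted p = 2.18e-05 over 12). *ZAR1L*, the relative of *ZAR1*, had 119 ± 76.1 FPKM (SD, n = 29) and was above *ZAR1* in 28 of 29 samples. *YBX1* had 121 ± 65.4 FPKM against 0.576 for *YBX2*, *IGF2BP3* 43.6 ± 17.1 against 0.870 for *IGF2BP2*, and *PABPN1* 38.7 ± 16.1 against 0.641 for *PABPN1L*. *PABPC4* had 29.7 ± 19.7 FPKM and *PABPC1* 14.2 to 65.0 FPKM (median 26.6) against a mean of 1.13 FPKM for *PABPC1L*, and *LSM14A* had 5.04 ± 2.62 against 0.511 for *LSM14B*. In these 6 comparisons the relative was higher than the member in 29 of 29 samples.

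The reverse order was found for *PATL2*, which was above *PATL1* (0.474 ± 0.406 FPKM) in every sample, and for *CPEB1*, which was above *CPEB2* (0.350 ± 0.149 FPKM) and *CPEB3* (0.137 ± 0.105 FPKM) in every sample. *CPEB4*, at 4.16 ± 2.09 FPKM, was above *CPEB1* in 26 of 29 samples. *IGF2BP1* was listed at 0 in all 29 samples and was not tested against *IGF2BP2*. *YBX2* and *YBX3* (0.532 ± 0.296 FPKM) did not differ beyond their spread (permutation p = 0.989; mean difference 0.00 ± 0.44 (SD) on the log2 scale). *YBX1* and *PABPC4* each have 2 rows in the table, of which the higher was used. Close relatives can share reads, and reads that matched more than 1 place had been dropped, so levels within a family are less certain than those of single genes.

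**Figure D2:**
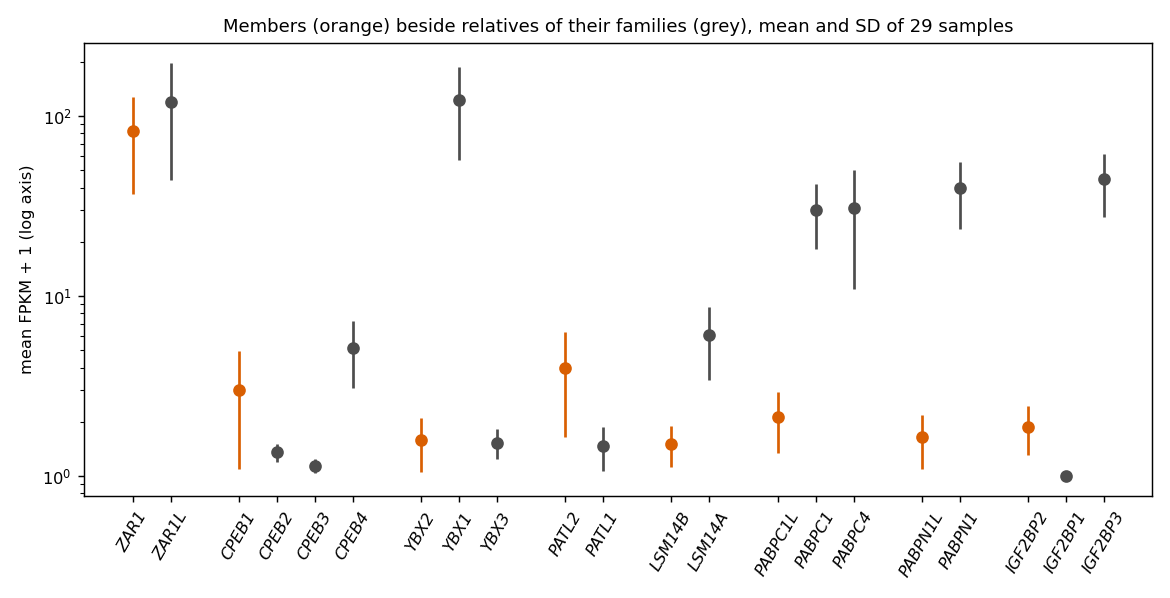
Mean FPKM + 1 of each member (orange) and of relatives from its family (grey) over 29 samples, on a log axis; vertical lines span 1 SD on either side, cut at 0 FPKM. *YBX1*, *PABPC1*, *PABPC4*, *PABPN1* and *IGF2BP3* lie above the members they stand beside, and *PATL1*, *CPEB2* and *CPEB3* below.

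Among 61 further genes of storage, polyadenylation, poly(A) binding and decapping, 60 had a row (68 rows in all), and 40 rows were above 0.5 FPKM in every sample. Above *ZAR1* in mean FPKM were 6: *AURKA*, the kinase that activates CPEB1 (1353 ± 437 FPKM; SD, n = 29), *PAIP1*, a partner of the poly(A)-binding protein (1232 ± 1052), the cap-binding protein *EIF4E* (406 ± 341), *TACC3* (129 ± 119), *YBX1* and *ZAR1L*. Of the tail-making enzymes, *PAPOLG* had 27.7 ± 15.6, *PAPOLA* 14.7 ± 3.52 and the cytoplasmic enzyme *TENT2* 10.8 ± 4.97 FPKM. The cleavage factor *FIP1L1* had 21.0 ± 9.68 FPKM. *PAPOLA* has 3 rows, of which the highest is given, and the others had means of 4.23 and 0 FPKM. The second row of *EIF4E* was at 0 in all 29 samples. In decapping *LSM1* had 33.6 ± 28.9, *EDC3* 5.44 ± 3.31, *DCP2* 4.26 ± 2.24 and *XRN1* 3.91 ± 2.35 FPKM (SD, n = 29 each).

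Of these further genes, 1 of 52 tested rows passed the limits in large follicles (2.29% of all genes), 1 of 52 in medium follicles (3.40%), 0 of 51 in small follicles (1.70%) and 1 of 54 over all stages (0.526%). None passed after adjustment by limma. *FXR1*, an RNA-binding protein, had 11.9, 3.37, 5.71, 6.21 and 12.7 FPKM in HLO and 12.3, 16.0, 7.72, 28.3 and 29.8 FPKM in LLO, a log2 fold change of -1.11 (SE 0.497, limma adjusted p = 0.828). *LSM1*, which binds messages before decapping, had 19.4 to 100 FPKM in HMO and 4.41 to 38.2 FPKM in LMO, a log2 fold change of 1.44 (SE 0.645, limma adjusted p = 0.565). Both overlapped between the groups. A second row of *PUM2*, at 0 in 22 of 29 samples, passed over all stages (log2 fold change -1.17, limma adjusted p = 0.436). In the interaction test 2 of 54 rows, a second row of *CPSF3* (p = 0.0453) and *PABPC5* (p = 0.0383), passed limma's test unadjusted (n = 29), against 7.89% of all genes.

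The values of 4 of the 10 genes differed between the replicate numbers in the sample names, a comparison chosen after seeing the data. The labels do not say what the number stands for. *CPEB1* was highest in replicate 1 in all 6 groups. The 6 samples numbered 1 had 1.81 to 8.51 FPKM (mean 4.67 ± 2.99 SD), and 5 of them exceeded every one of the other 23 samples, which had 0.580 to 2.28 FPKM. *ZAR1* had 122 ± 35.8 FPKM (SD, n = 6) in replicates 3 and 37.0 ± 23.2 FPKM (SD, n = 6) in replicates 5, and replicate 5 was the lowest of its group in 5 of 6 groups. *PATL2* was lowest in replicate 3 in 4 of 6 groups (1.32 ± 0.905 FPKM; SD, n = 6) and highest in replicate 1 in 4 of 6 (4.51 ± 2.89 FPKM; SD, n = 6). *PABPN1L* had 0.207 ± 0.239 FPKM (SD, n = 6) in replicates 3 and 1.06 ± 0.316 FPKM (SD, n = 6) in replicates 1.

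By limma's F-test over the replicate numbers with the 6 groups as covariate, these 4 genes passed an adjusted p of 0.05 over 9692 genes: *CPEB1* (0.000394), *ZAR1* (0.00921), *PABPN1L* (0.0168) and *PATL2* (0.0194). Of all genes tested 50.5% did so (58.0% by unadjusted p), so 4 of 10 is no more than in the table as a whole. By unadjusted p the count was 2 with median-of-ratios factors or quantile normalization (*CPEB1* and *ZAR1*), 5 with a pseudocount of 0.1 and 6 with array weights. Other measures moved with the number: the median of genes above 0.5 FPKM was 7421 in replicates 2 and 7239 in replicates 3, against 8268.5, 8149 and 8279 in replicates 1, 4 and 5. The median of *GDF9* was 86.9 and 146 FPKM in replicates 2 and 3, against 378, 375 and 509 FPKM in replicates 1, 4 and 5. The summed stroma markers had medians of 6.29 and 5.96 FPKM in replicates 2 and 3, against 14.3, 8.40 and 14.8 FPKM in replicates 1, 4 and 5; they were 4.36 to 6.43 FPKM in replicates 3 and 11.6 to 17.8 FPKM in replicates 5. Their part in the levels of the 10 genes was not tested.

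**Figure D3:**
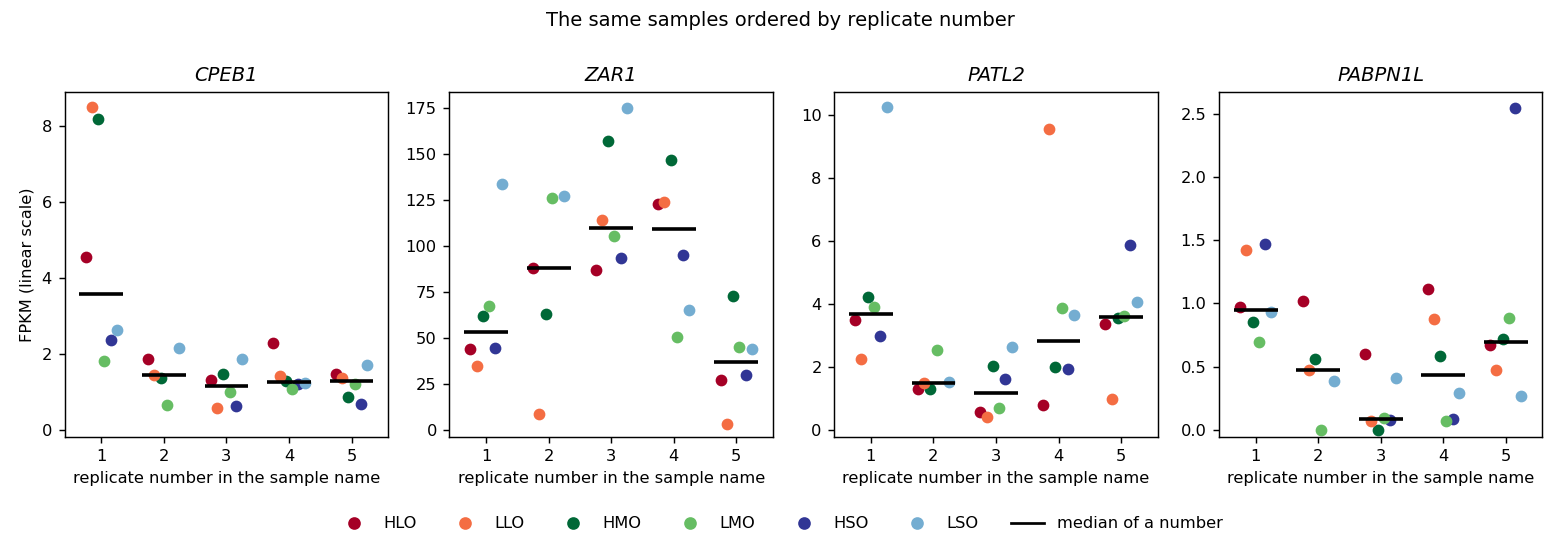
FPKM (vertical axes, linear) of the 4 genes that passed limma's F-test over replicate numbers, for the 29 samples ordered by the replicate number in their names; colours give the groups and black lines the median of a number. *CPEB1* in the 6 samples numbered 1 spans 1.81 to 8.51 FPKM, and *ZAR1* is low in those numbered 5.

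Across the 29 samples the 10 genes did not move as 1 group. Among their 45 pairs the median Spearman rho of log2(FPKM + 1) was 0.02, with 25 pairs above 0 (55.6%), against 0.15 and 63.9% for all pairs of tested genes. These values are descriptions, since the samples share groups, replicate numbers and a scaling. The highest were *LSM14B* with *IGF2BP2* (rho 0.57) and *CPEB1* with *PABPN1L* (0.54), and the lowest *ZAR1* with *DAZL* (-0.59). Among the oocyte markers, *ZAR1* had a rho of 0.86 with *FIGLA*, a transcription factor of the oocyte, and of -0.47 (*ZP4*) to 0.12 (*NLRP5*) with the other 9. *PATL2* had 0.84 with the zona pellucida gene *ZP3*, 0.82 with *KIT* and 0.79 with *GDF9*, and -0.04 (*FIGLA*) to 0.78 (*ZP4*) with the other 7.

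The values below are each the highest of 8233 or 8234 candidates, so they are high by selection and only describe. For each gene, the most similar tested gene with a symbol of a single row was sought, by Spearman rho over 29 samples. It was *XRCC5* for *ZAR1* (0.96), *POLR2M* for *PATL2* (0.91), *CDK17* for *IGF2BP2* (0.88), *CELF2* for *LSM14B* (0.86), *ZNF622* for *PABPC1L* (0.83), *AK7* for *DAZL* (0.79), *MRPL43* for *PABPN1L* (0.76), *BASP1* for *YBX2* (0.72), *SFRP2* for *CPEB1* (0.71) and *ODF2* for *DDX6* (0.67). None of the 10 most similar genes was another of the 10.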

How the data were processed

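RNA of pooled oocytes was sequenced after enrichment of polyadenylated RNA. Per the study's methods, reads matching a single place with few mismatches were kept, duplicates were taken out with picard, and Cufflinks with the Ensembl annotation gave the FPKM that the authors deposited as 1 table. The aligner and genome build are not given in the sources used here. The authors also placed gene symbols in the table, and all 10 symbols are in the RefSeq gene table. Each column was matched to its sample by title; 1 further column of values, named for replicate 2 of HSO, matched none of the samples analysed here and was not used.

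FPKM are not counts, and low values showed no steps of whole reads, so the depth per sample is unknown and no counting interval is given. Values were tested on the log2(FPKM + 1) scale, which understates changes of low genes, with limma 3.58.1 (moderated test with trend, R 4.3.3) for genes that exceeded 0.5 FPKM in 4 or more samples of the comparison, and p-values were adjusted by Benjamini-Hochberg over all genes tested. Each stage was compared with its own samples only. Populations over all stages, the 3 stages and their interaction were tested in all 29 samples. Two-sided permutation tests used 100000 resamples for pairs of genes and full enumeration for groups. The procedures were tested on simulated data, drawn independently for each sample. Changes were set only in genes with a higher mean level than all of the 10 but *ZAR1*. The simulation therefore says nothing of power at the level of the others. The genes and lists were chosen with earlier results of these data known. Named besides the 10 genes and the cell type markers are up to 3 further genes per direction past the limits in a comparison. Genes among the 4 highest of each list, relatives of the 10 genes and, for each of the 10, the gene of highest rho are also named. *TENT2* was named outside these rules. The same-number samples of both populations deviated together in 10 of 14 pairs (correlation above 0.1; range over all pairs -0.481 to 0.709). Since this did not hold in every pair and the labels give the numbers no meaning, they were not used as pairs. Alternatives were array weights, quantile normalization, median-of-ratios factors, no filter, a pseudocount of 0.1, 1 fit over all samples, a replicate block and each sample left out. The test over replicate numbers, the comparison with relatives and the exact test of all genes were added after seeing the data. No sequences or coordinates were used. Tables were made in Python 3.11.15 (pandas 2.3.3, numpy 2.4.6, scipy 1.17.1) and plots with matplotlib 3.10.9.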

Additional observations from a re-analysis of the deposited data

Results flagged for a closer look

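In 10 of 60 sets of values (10 genes in 6 groups) 1 sample lay far above the others of its group by Dixon's test at 95%. Independent sets of normally distributed values pass it in about 1 in 20. This rate need not hold here, since linear FPKM are skewed to high values and the sets share samples. All 10 were high and none low, in 7 genes, on the linear FPKM scale. *CPEB1* had 8.51 FPKM in LLO replicate 1 and 8.19 FPKM in HMO replicate 1, where the other samples reached at most 1.45 and 1.46 FPKM. *PABPC1L* had 4.45 FPKM in LSO replicate 1 and 2.27 FPKM in HLO replicate 1, against at most 1.43 and 0.915 FPKM in the others. LSO replicate 1 also stood out in *DDX6* (2.51 FPKM, others at most 0.926) and *PABPN1L* (0.933 FPKM, others at most 0.410). *DDX6* had 2.50 FPKM in LMO replicate 4 (others at most 0.977), *PATL2* 9.56 FPKM in LLO replicate 4 (others at most 2.26), *DAZL* 2.63 FPKM in LSO replicate 5 (others at most 0.424) and *IGF2BP2* 1.88 FPKM in HMO replicate 5 (others at most 0.735). Of the 10 flags, 6 fell on samples numbered 1.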

How the results depend on the processing

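The 10 genes gave 1833 member results over the alternatives. Of these 1777 stayed on their side of an unadjusted p of 0.05, 52 came to pass it, 4 no longer did and 0 reversed. Of 793 fold changes 40 took the other sign, none of them past the threshold. Under median-of-ratios factors no mean level moved by more than its SD. This limit was wide, as the SDs were 56.0% (*ZAR1*) to 95.8% (*CPEB1*) of the means. *DAZL* in medium follicles had an unadjusted p under 0.05 in 17 of 17 alternatives (4.03e-05 to 0.0272). The cause of the changes below was not tested.

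Counts of the 10 genes past the limits (0 in each comparison) became 1 (*ZAR1*) in large follicles with array weights, and in medium follicles 1 (*DAZL*) with a pseudocount of 0.1 and 2 (*ZAR1* and *DAZL*) with array weights. They were 1 (*PATL2*) between stages with array weights, and in the interaction 1 (*DAZL*) with a pseudocount of 0.1, median-of-ratios factors or quantile normalization and 2 with array weights or the replicate block (*DAZL* with *ZAR1*, or with *CPEB1*). Over replicate numbers 4 became 2 with median-of-ratios factors or quantile normalization, 5 with a pseudocount of 0.1 and 6 with array weights. With 1 sample left out the counts ranged from 0 to 0 in large and small follicles and over all stages, from 0 to 1 in medium follicles and between stages, from 0 to 2 in the interaction (1 without HLO replicate 5, LLO replicate 1, 2 or 5, LMO replicate 2 or LSO replicate 5 and 2 without LLO replicate 4) and from 4 to 5 over replicate numbers; between stages *PATL2* passed without LLO replicate 4 and *PABPC1L* without HLO replicate 1.

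Same-number samples were correlated above 0.1 in 10 of 14 pairs but not in all, and 7 of 14 samples correlated best with their own number in the other population, so whether the numbers pair the samples is not settled by the data. With the replicate block, all genes past the limits were 385 in large, 375 in medium and 321 in small follicles (191, 285 and 142 without), 58 over all stages (51), 277 between stages (161) and 1405 in the interaction (765), and *IGF2BP2* came under the unadjusted threshold of limma in small follicles (log2 fold change -0.43) and over all stages (-0.29). Other counts over all genes that moved by more than 1.5 times were, in large follicles, 342 (pseudocount 0.1), 872 (array weights) and 425 (1 fit over all samples), in medium follicles 514 (pseudocount 0.1) and 936 (array weights), in small follicles 293 (pseudocount 0.1), over all stages 162 (pseudocount 0.1), 91 (median-of-ratios factors) and 177 (array weights), between stages 364 (no filter) and 817 (array weights), and in the interaction 1197 (no filter) and 1619 (array weights). Of the calls in medium follicles 239 of 285 were higher in HMO, against 251 of 936 with array weights; in large follicles it was 148 of 191 against 307 of 872, over all stages 47 of 51 against 28 of 177, and in small follicles 77 of 142 against 110 of 165 with median-of-ratios factors, 139 of 321 with the replicate block and 83 of 231 without LSO replicate 2. With 1 sample left out they ranged from 86 to 580 in large, 197 to 455 in medium and 48 to 344 in small follicles, from 19 to 106 over all stages, 85 to 489 between stages, 593 to 1109 in the interaction and 5207 to 5901 over replicate numbers.

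Depth is unknown from FPKM, and most of the 10 genes lay near 1 FPKM, where the added 1 dampens fold changes.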
